A study of Mus musculus with 10 samples.

Results

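Potassium channel subunits were followed in the forebrains of mouse embryos that express a permanently active FoxO3. A gene counted as a member when its array entry named a single symbol made of Kcn, further letters and a closing number, and each gene was read from its brightest probe set. This gave 87 members among 19938 measured genes. The symbol rule used no measured difference between the groups, but the set was chosen with earlier results of these data known. They fall into 11 families: pore-forming subunits of the voltage-gated, calcium- and sodium-activated, inward rectifier and tandem-pore classes, and the auxiliary subunits that bind them.

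RNA came from 10 embryos on a mixed CD1/NMRI background at stage E12.5, taken from 2 dams 12 days after the vaginal plug, with 1 array per embryo. The 5 dtg embryos are labelled transgenic, and the study describes a constitutively active FoxO3 allele driven by the CaMKIIa promoter, which it calls forebrain-specific. The 5 stg embryos are labelled controls of the same stage and background. The abbreviations are not spelled out. Neither the transgenes of the stg embryos nor the dam of each embryo is given, so litter and group cannot be told apart. The dissection kept the forebrain, cut it away from the main part of the thalamus, and used one side of it for RNA. Per the study's design text, the transgenes were checked by genotyping and by luciferase activity, and neither readout is part of the values used here.

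Potassium channels let potassium leave the cell and so set the resting potential, end action potentials and pace repetitive firing. Voltage-gated Kv subunits open on depolarization, calcium-activated subunits open when calcium rises, inward rectifiers pass current best near rest, and tandem-pore (K2P) channels carry background leak. In the developing brain different subunits are switched on as progenitors leave the cycle and neurons mature, and leak and rectifier channels are also present in glial, vascular and choroid plexus cells.

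The arrays had medians of 5.36 to 5.39 log2 intensity, and correlations between arrays across genes ran from 0.98 to 0.996. By Xist and Y-linked signal, each group held 3 female and 2 male embryos. Foxo3 read 6.98 ± 0.15 log2 in dtg and 6.64 ± 0.14 in stg embryos (SD, n = 5 each), a difference of 0.34 with a limma adjusted p of 0.218, and its probes need not cover the transgene. Camk2a, the gene of the promoter used, read 5.92 ± 0.13 in dtg and 6.23 ± 0.18 in stg embryos. Its difference was -0.31 (limma adjusted p = 0.391). Of the 11 forebrain marker genes measured, 7 lay above the 75th percentile of all genes on the arrays. In dtg embryos 3 of the 11 read higher and 8 lower. At an unadjusted limma p below 0.05 there were 2 higher (all genes, 4.1%) and 3 lower (all genes, 3.48%), and 0 passed adjustment. The list's embryo means were 7.58 to 7.8 log2 in dtg and 7.47 to 7.94 in stg embryos. One array stood apart: stg embryo 5 had a mean over 23 pan-neuronal genes of 7.37 log2, which was 1.22 below the mean of the other stg embryos. Its mesenchyme list mean was 7.74, against 6.05 to 6.79 in the other 4 stg embryos. All 23 pan-neuronal genes were lowest in this embryo among the 10. Several values below moved when this embryo was left out, and those with larger shifts are also given without it. In these bulk samples fewer cells of a type and less RNA per cell cannot be told apart.

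None of the 87 members passed the test over all genes. At a limma adjusted p below 0.05 (linear model on the log2 values, Benjamini-Hochberg adjustment over 19938 genes), 0 of 87 members were called, against 0.105% of all genes, and the smallest adjusted p among the members was 0.244. At an unadjusted p below 0.05 there were 8 members, 9.2% of them, against 7.58% of all genes, so the share was near the background. Of these, 6 were higher in dtg embryos (all genes, 4.1%) and 2 were lower (all genes, 3.48%). The groups were free of overlap in 0 of 87 members and in 1.6% of all genes. For a set of 87 that count is near the background share. By sign alone 46 members read higher and 41 lower in dtg embryos, and of all genes 48.1% read higher. An absolute log2 difference of at least 0.25 was seen in 11 members, 12.6%, against 4.69% of all genes. The median log2 difference was 0.0065 over the members and -0.0038 over all genes, and the median absolute difference was 0.061 and 0.059.

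Most members were measured tightly enough to bound their difference. In 58 of 87 the absolute log2 difference was under 0.1, and in 74 the whole 95% confidence interval lay between -0.5 and 0.5. The median within-group SD was 0.15 log2 over the members and 0.12 over all genes. By brightness 46 members lay below the 40th percentile of all genes, where a probe set can sit near background, and 5 of the 8 members with an unadjusted p below 0.05 were among them. The deposited values give no detection call, so a flat reading of a dim member does not show that its level was alike in both groups.

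**Figure D1:**
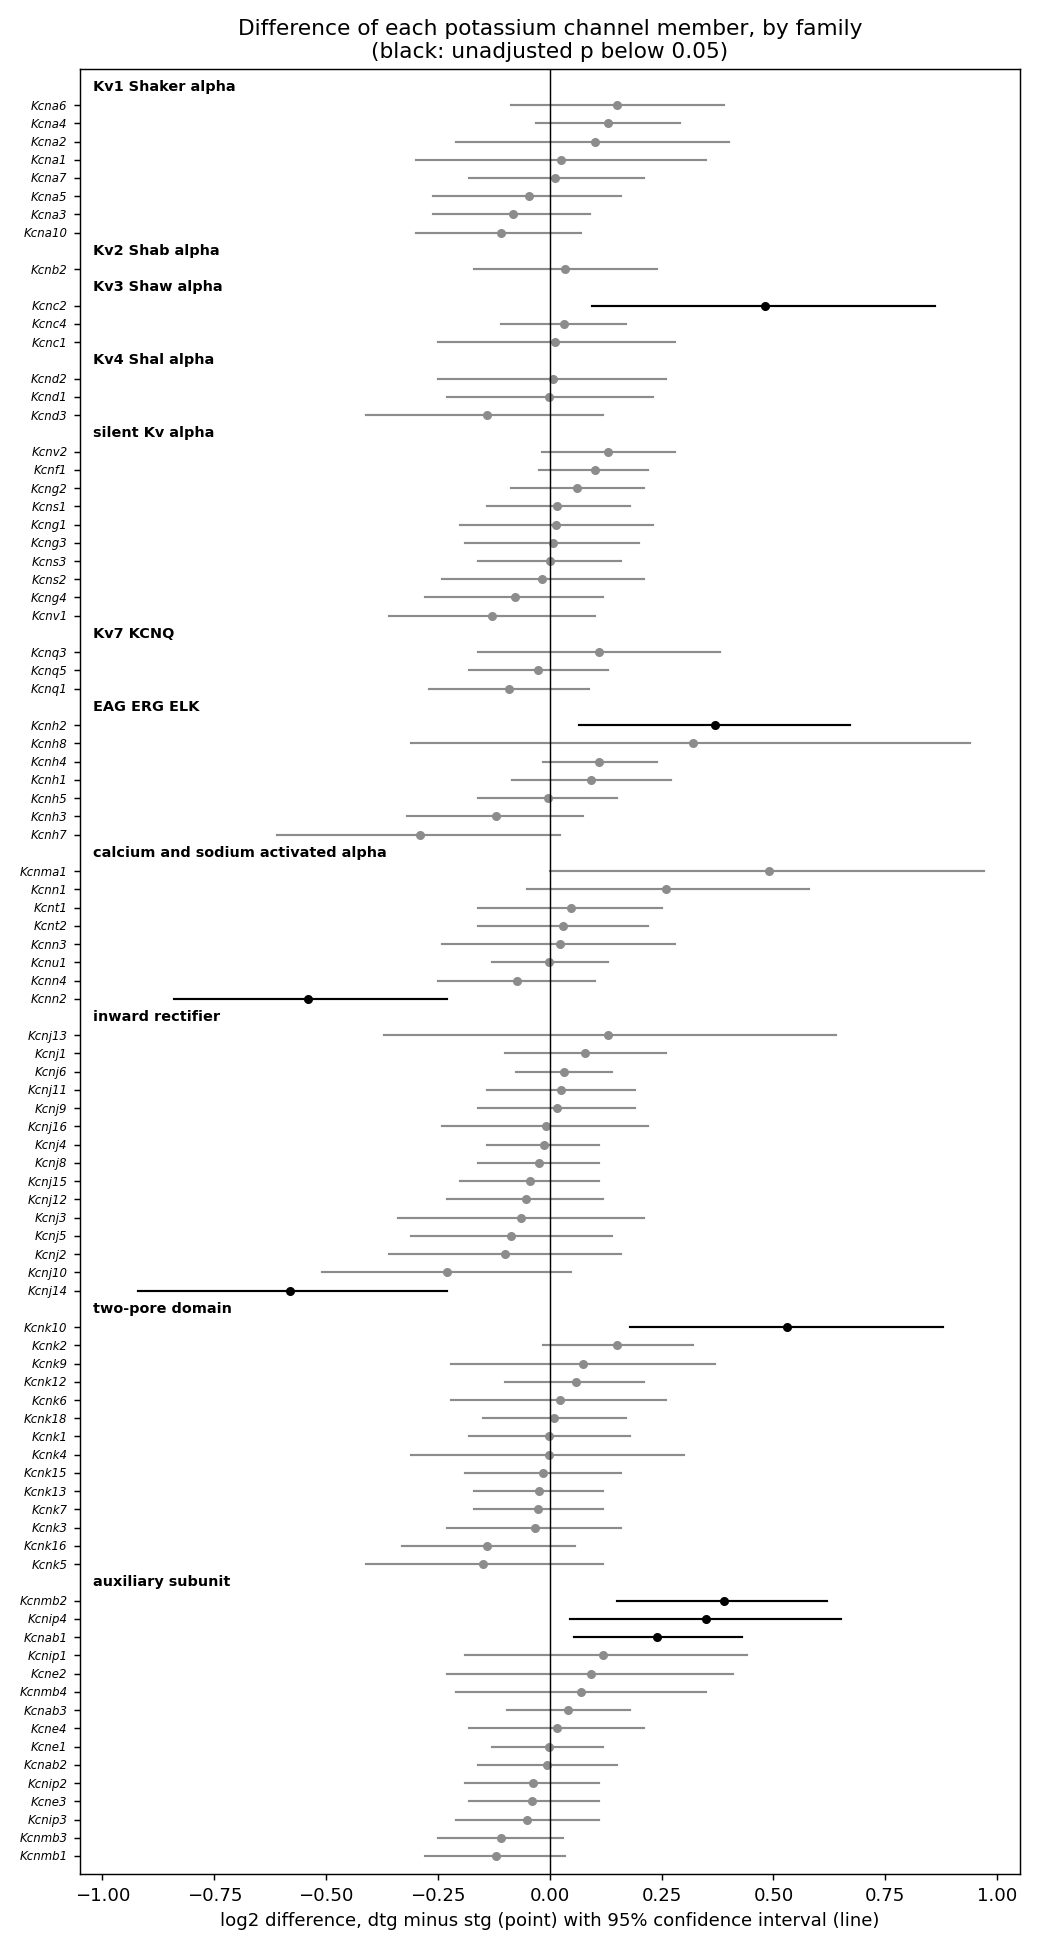
Log2 difference (dtg minus stg, x axis) of each of the 87 members (y axis), grouped by family; points are limma estimates, lines are 95% confidence intervals, and black marks an unadjusted p below 0.05. Most points lie within 0.1 of 0, with Kcnk10 at 0.53 at the upper end and Kcnj14 at -0.58 at the lower end.

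The leak channel gene Kcnk10 had the largest positive difference among the members. Kcnk10 encodes TREK-2, a K2P background channel that responds to membrane stretch, temperature and fatty acids. Its log2 intensity was 8.45, 8.22, 8.41, 8.11 and 8.33 in dtg embryos 1 to 5, against 7.84, 7.87, 7.83, 8.20 and 7.12 in stg embryos 1 to 5. Of the 5 dtg embryos 4 lay above every stg embryo, the fourth fell between stg embryo 4 and the rest, and stg embryo 5 was far below all others. The difference was 0.53 ± 0.16 log2 (SE, n = 5 per group), or 1.44-fold, with a limma adjusted p of 0.402. It was 0.37 without stg embryo 5. Among the other K2P genes none had an unadjusted p below 0.05, and of the 14 family members 6 read higher and 8 lower, with a lowest value of -0.15. Kcnk2 also read higher, by 0.15 log2 (limma unadjusted p = 0.0705). Without stg embryo 5 it was 0.18, with a limma unadjusted p of 0.0416 and an adjusted p of 0.721.

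The sequence just before the outermost annotated start of Kcnk10 is shown because this gene has the brightest probe set of its family and the largest positive difference, and because FoxO factors bind short forkhead sites. The 250 bases lie at chr12:98578214-98578463 on the minus strand of GRCm38.p6 (RefSeq), and capitals mark its 4 CG dinucleotides.
Kcnk10 upstream: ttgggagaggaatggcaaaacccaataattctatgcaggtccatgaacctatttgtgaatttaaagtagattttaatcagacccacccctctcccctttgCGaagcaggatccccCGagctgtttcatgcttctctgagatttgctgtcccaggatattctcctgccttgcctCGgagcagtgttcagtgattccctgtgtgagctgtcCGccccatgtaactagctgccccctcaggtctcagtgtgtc

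RefSeq windows of 300 bases (250 before to 50 after a start) were found for 66 members, 91 windows in all. The forkhead letters GTAAACA, searched on both strands, occurred in 0 of the 91 member windows and in 3.65% of all 32851 windows. The variant GTAAATA, which cannot match at the same position, occurred in 0 of 91 and in 3.04% of all windows. This describes these letters in these windows only and says nothing of sites elsewhere. The median number of CG dinucleotides was 9 in member windows and 7 in all windows.

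Among voltage-gated subunits the delayed rectifier gene Kcnc2 and the ERG gene Kcnh2 read higher in dtg embryos without passing. Kcnc2 encodes Kv3.2, which repolarizes fast-firing interneurons in the adult brain. Its log2 intensity was 4.98, 5.26, 5.24, 4.70 and 5.34 in dtg embryos, against 4.61, 4.68, 5.0, 4.85 and 4.0 in stg embryos. The groups overlapped, 3 dtg embryos lay above all stg embryos, and stg embryo 5 was lowest of the 10. The difference, on a dim probe set, was 0.48 ± 0.18 log2 (SE, limma adjusted p = 0.55), and 0.32 without stg embryo 5. Kcnh2 encodes the ERG1 channel, best known for ending the cardiac action potential. It read 6.73, 6.43, 6.64, 6.44 and 6.68 in dtg embryos, against 6.55, 6.10, 6.22, 6.49 and 5.73 in stg embryos. All dtg embryos lay above stg embryos 2, 3 and 5, while stg embryos 1 and 4 lay within their range. Its difference was 0.37 ± 0.14 log2 (limma adjusted p = 0.562), and 0.24 without stg embryo 5.

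The paralogue of Kcnh2 pointed the other way. Kcnh7, which encodes ERG3, read 5.73, 5.22, 5.64, 5.04 and 5.81 in dtg embryos, against 5.80, 6.02, 5.75, 5.75 and 5.57 in stg embryos. Only dtg embryos 2 and 4 lay below every stg embryo. The difference was -0.29 ± 0.14 log2 (limma adjusted p = 0.696). Kcnh8, which encodes ELK1, had a difference of 0.32 that came down to 0.027 without stg embryo 5. That embryo read 4.70 for Kcnh8, against 5.68 to 6.38 in the other stg embryos and 5.76 to 6.51 in dtg embryos. A second Kcnh8 probe set differed by 0.016. Over the whole EAG, ERG and ELK family 4 of 7 genes read higher and 3 lower.

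**Figure D2:**
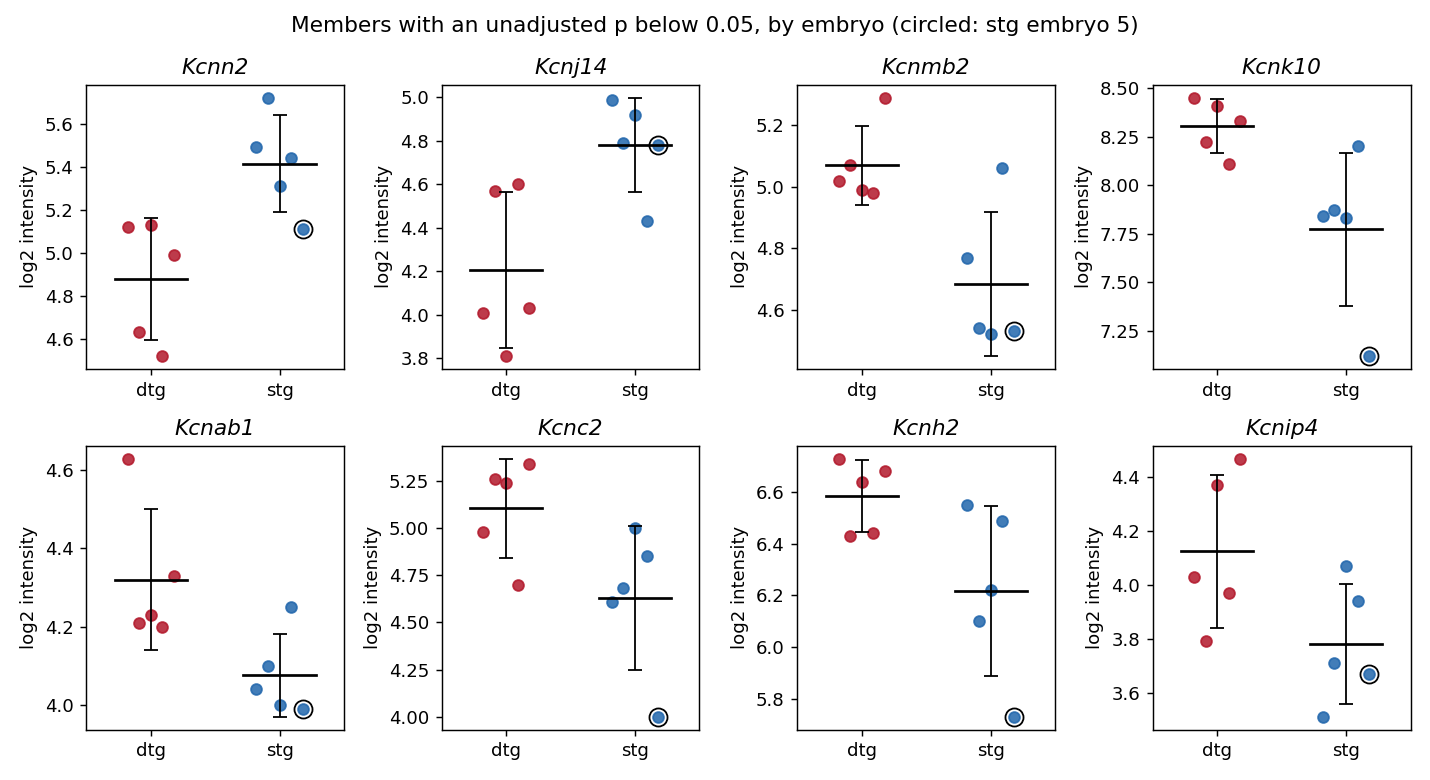
Log2 intensity (y axis) of the 8 members with an unadjusted p below 0.05, by embryo, in dtg (red, left) and stg (blue, right) forebrains; black lines are means and bars are SD (n = 5 each), and a ring marks stg embryo 5. The groups overlap in all 8 panels, and stg embryo 5 lies lowest in the panels of Kcnk10, Kcnc2, Kcnh2 and Kcnab1.

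The other voltage-gated genes differed by little. Of the 8 Kv1 genes, homologues of Drosophila Shaker, 5 read higher and 3 lower, between -0.11 and 0.15. Kcna4, which encodes a fast-inactivating Kv1 subunit, differed by 0.13 ± 0.073 log2, and Kcna3, known for its part in lymphocyte activation, by -0.083 ± 0.079. The 3 Kv4 genes, which carry A-type current, ran from -0.14 for Kcnd3 (-0.22 without stg embryo 5) to 0.0065 for Kcnd2. Kcnd2 averaged 6.47 ± 0.19 log2 in dtg and 6.47 ± 0.23 in stg embryos (SD, n = 5 each), with a 95% confidence interval of the difference from -0.25 to 0.26. The 1 Kv2 gene, Kcnb2, differed by 0.034 and the Kv3 gene Kcnc4 by 0.032. Among the 10 silent subunits, which form no channel alone and change the behaviour of Kv2 partners, the values lay between -0.13 and 0.13. Kcnv2, a photoreceptor subunit in the adult, was at 0.13 and Kcng1 at 0.013. In the 3 KCNQ genes the values were 0.11 for Kcnq3 (0.0023 without stg embryo 5), a subunit of the M current that restrains firing, -0.091 for Kcnq1, known from heart and inner ear, and -0.026 for Kcnq5. None of the members in this paragraph had an unadjusted p below 0.05.

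Within the channels gated by calcium, Kcnn2 was lower and Kcnma1 higher in dtg embryos, and neither passed. Kcnn2 encodes SK2, a small-conductance channel that produces the hyperpolarization after spikes. Its log2 intensity was 5.12, 4.63, 5.13, 4.52 and 4.99 in dtg embryos, against 5.49, 5.72, 5.31, 5.44 and 5.11 in stg embryos. Only dtg embryos 1 and 3 reached the stg range, each at the level of stg embryo 5, and the other 3 lay below every stg embryo. The difference was -0.54 ± 0.14 log2 (SE, n = 5 per group), or 0.689-fold, with the smallest adjusted p of the members (limma, 0.244), and -0.61 without stg embryo 5. With the pan-neuronal list mean as a covariate it was -0.68 and passed (limma adjusted p = 0.00833), and allowing in that way for genes of the dissection border gave -0.74 (adjusted p = 0.642). Kcnn2 was the 1 member of the 8 whose unadjusted p stayed below 0.05 in that last fit.

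Kcnma1 encodes the pore of the large-conductance BK channel, opened by calcium and voltage together. It read 6.39, 5.57, 6.46, 5.46 and 5.91 in dtg embryos, against 5.71, 5.69, 5.51, 5.63 and 4.80 in stg embryos. The dtg embryos were split, with 3 above all stg embryos and 2 among them. The difference was 0.49 ± 0.22 log2 (limma adjusted p = 0.658), and 0.32 without stg embryo 5. A second, dim probe set for this gene, with a mean of 4.05 log2, differed by 0.54 ± 0.29. Its embryos were ordered otherwise, with dtg embryo 5 lowest of all at 3.3 and stg embryo 5 at 3.74. Kcnn1, the SK1 gene, differed by 0.26 ± 0.14, and by 0.14 without stg embryo 5. The other 5 genes of this group, which include the sodium-activated and the sperm-type subunits, lay between -0.073 and 0.047.

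Of the 15 auxiliary subunit genes 3 read higher at an unadjusted p below 0.05, as did 4.1% of all genes. Kcnmb2 encodes a beta subunit that makes BK channels inactivate. Its log2 intensity was 5.02, 5.07, 4.99, 4.98 and 5.29 in dtg embryos, against 4.77, 4.54, 4.52, 5.06 and 4.53 in stg embryos. Every dtg embryo lay above 4 of the stg embryos, and only stg embryo 4 reached them. The difference, on a dim probe set, was 0.39 ± 0.11 log2 (limma adjusted p = 0.324). Without stg embryo 4 it was 0.48 and passed (limma adjusted p = 0.0459). Over the 19 alternative fits that could give it, its adjusted p ran from 0.0459 to 1.

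Kcnab1, a Kv1 partner that speeds inactivation, averaged 4.32 ± 0.18 log2 in dtg and 4.08 ± 0.1 in stg embryos (SD, n = 5 each), a difference of 0.24 ± 0.087 (limma adjusted p = 0.529). Kcnip4, a calcium-binding partner of Kv4 channels, averaged 4.13 ± 0.28 in dtg and 3.78 ± 0.22 in stg embryos, a difference of 0.35 ± 0.14 (adjusted p = 0.597). Both are dim and both overlapped, with 2 dtg embryos above all stg embryos in each. Of the 15 auxiliary genes 8 read higher and 7 lower, and the median difference was 0.017. Kcnmb4, the BK beta subunit of neurons, differed by 0.069 ± 0.13.

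Among the 15 inward rectifiers 1 gene had an unadjusted p below 0.05, and it was lower in dtg embryos (all genes, 3.48%). Kcnj14, which encodes the strong rectifier Kir2.4, read 4.01, 4.57, 3.81, 4.60 and 4.03 in dtg embryos, against 4.99, 4.79, 4.92, 4.43 and 4.78 in stg embryos. The values of dtg embryos 1, 3 and 5 lay below every stg embryo, while stg embryo 4 was below dtg embryos 2 and 4. The difference was -0.58 ± 0.16 log2 (limma adjusted p = 0.316) with and without stg embryo 5, on a dim probe set. Kcnj11, the pore of the ATP-sensitive channel, differed by 0.024 ± 0.076. Of the 15 rectifier genes 5 read higher and 10 lower, with a median of -0.024.

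Embryo to embryo, the members varied more than the groups differed, and the deepest lows were in stg embryo 5. It was the lowest of the 10 embryos for 17 members, 19.5% of them, against 17.1% of all genes, so this count was near the background. The 17 include Kcnk10 at 7.12, Kcnh8 at 4.70, Kcnma1 at 4.80, Kcnn1 at 6.40, Kcnc2 at 4.0 and Kcnq3 at 5.92. Without this embryo 12 of 87 members, 13.8%, had an unadjusted p below 0.05, against 6.83% of all genes, and 0 passed adjustment in limma. All 8 members of the full comparison were among the 12, and Kcnh7, Kcnv2 and Kcnk2 were among the others. With the pan-neuronal list mean as a covariate the count was 9, or 10.3%, against 8.17% of all genes. In the pan-neuronal list 23 of 23 genes read higher in dtg embryos with a median of 0.34, and 17 of 23 with a median of 0.084 without stg embryo 5. Its embryo means were 8.33 to 8.98 in dtg and 7.37 to 8.7 in stg embryos, and the lowest of the other 4 stg embryos was 8.38, within the dtg range.

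**Figure D3:**
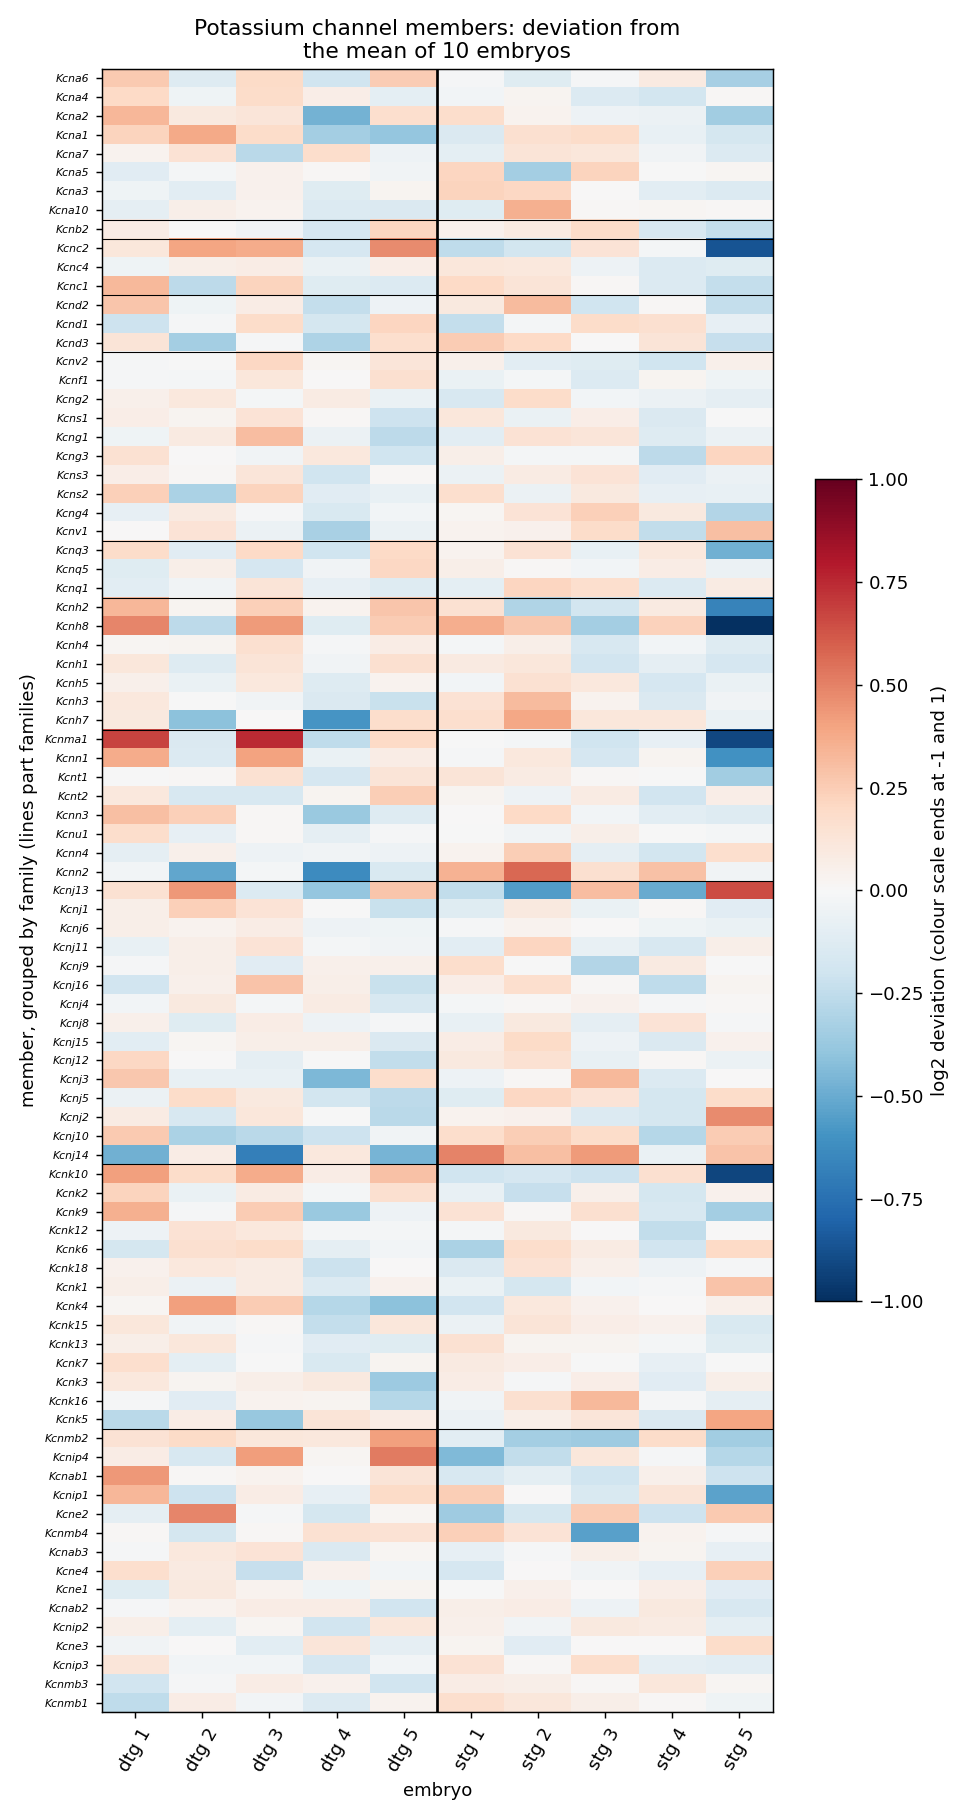
Deviation of each member (y axis, by family) from its own mean over the 10 embryos, in log2 (colour), with dtg embryos left of the black line and stg embryos right of it. The darkest blue cells are those of stg embryo 5, where Kcnh8, Kcnk10, Kcnma1 and Kcnc2 are lowest.

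Many genes listed for tissue at the edge of the dissection also read higher in dtg embryos. Of 20 genes of thalamus, hypothalamus and midbrain 17 read higher and 3 lower, with log2 differences from -0.25 to 2.26. These were uneven: Olig3 was at 2.26, Tcf7l2 at 1.74 and Sim1 at 1.29, but Rax at 0.005, En1 at -0.00088 and Nkx2-1 at -0.25. The pooled count therefore does not show that genes of each of these tissues read higher. At an unadjusted limma p below 0.05 there were 10, all higher (all genes, 4.1%), and 0 passed adjustment. The list's embryo means overlapped, at 6.15 to 6.76 log2 in dtg and 5.21 to 6.37 in stg embryos. With that list mean as a covariate the differences were 0.084 for Kcnk10, 0.045 for Kcnc2, 0.057 for Kcnh2, 0.12 for Kcnip4, 0.13 for Kcnab1 and 0.25 for Kcnmb2. Of the members that read lower, Kcnj14 was -0.30 and Kcnn2 -0.74 in that fit. In the same fit 4 members, 4.6%, had an unadjusted p below 0.05, against 3.98% of all genes. The list differs between the groups itself, and its part in the member values was not tested. In the G2/M list 19 of 19 genes read lower in dtg embryos. At an unadjusted limma p below 0.05 there were 8 of them (all genes, 3.48%), and 0 passed adjustment. Their median was -0.18, with overlapping embryo means of 7.97 to 8.46 in dtg and 8.35 to 8.54 in stg embryos. Of 17 radial glia genes 11 read lower, with embryo means of 8.74 to 8.88 in dtg and 8.85 to 8.93 in stg embryos. The mesenchyme list had embryo means of 6.32 to 6.9 in dtg and 6.05 to 7.74 in stg embryos, and its median of -0.053 became 0.24 without stg embryo 5, with 13 of 14 genes then higher in dtg embryos. The endothelial and pericyte list had means of 5.95 to 6.14 in dtg and 5.89 to 6.28 in stg embryos. The 7 erythroid genes had means of 6.81 to 7.73 in dtg and 6.82 to 8.19 in stg embryos, and their median of -0.2 became -0.035 without stg embryo 5. The part of these lists in the member values was not tested, beyond the covariate fits given.

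**Figure D4:**
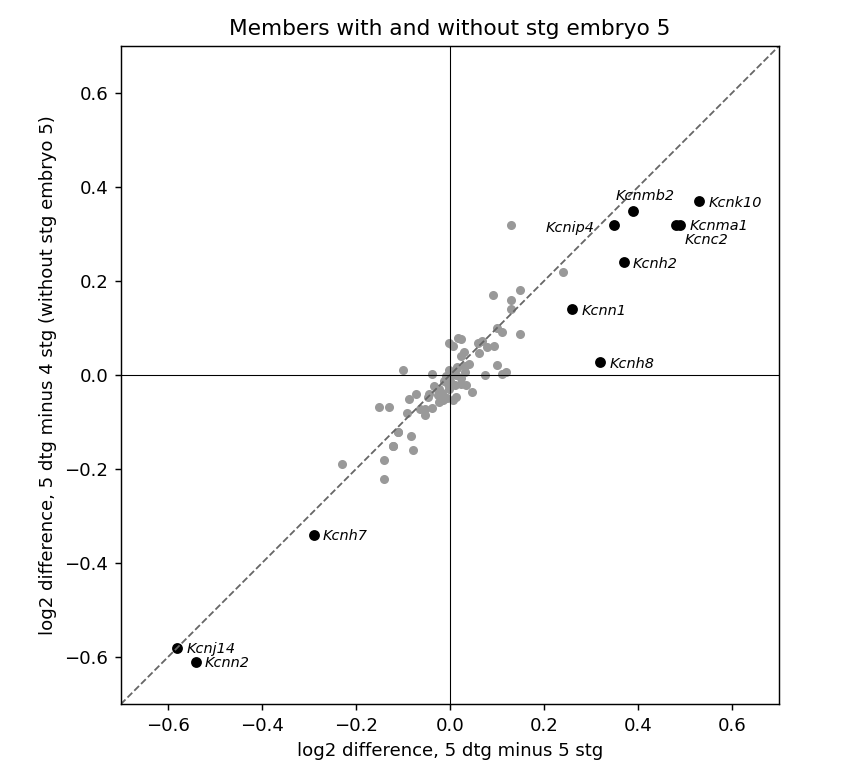
Log2 difference of each member with all 10 embryos (x axis) and without stg embryo 5 (y axis); the dashed line marks equal values, and named members in black differ by at least 0.25. Kcnh8 lies at 0.32 with that embryo and 0.027 without it, and Kcnk10 at 0.53 and 0.37, while Kcnj14 is -0.58 in both and Kcnn2 is -0.61 without it.

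Other ion channel genes gave 0 calls as well at a limma adjusted p below 0.05, against 0.105% of all genes. Of 12 sodium channel genes 10 read higher in dtg embryos (all genes, 48.1%). At an unadjusted limma p below 0.05 there were 2, each higher (all genes, 4.1%): Scn2a at 0.49 and Scn8a at 0.35. Without stg embryo 5 these were 0.32 and 0.22, and neither kept that p. Of 17 voltage-gated calcium channel genes 14 read higher (all genes, 48.1%). Below that p there were 2, each higher (all genes, 4.1%): Cacna1a at 0.39 and Cacna1b at 0.58. Without stg embryo 5 Cacna1b was 0.39 and kept it, and Cacna1a was 0.26 and did not, with 11 of 17 genes higher. Their medians were 0.15 for each list and came to 0.092 and 0.093 without stg embryo 5, which was the lowest of the 10 embryos for 7 of the sodium and 8 of the calcium channel genes. The 9 HCN and cyclic nucleotide-gated genes had a median of 0.019. Among 16 channel partners, which include the Kv4 partners Dpp6 and Dpp10 and the anchor Ank3, 10 read higher. At an unadjusted p below 0.05 there was 1 (all genes, 4.1%): Lrrc55, a BK partner, at 0.29. Without stg embryo 5 it was 0.23 and above that p, and 8 of the 16 partners read higher.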

How the data were processed

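The deposited table holds log2 intensities of 35556 probe sets on 10 arrays, which the authors computed in Affymetrix Expression Console; the submitters' processing notes name the tool, and its version, algorithm and settings are not given in the sources used here. Near-equal array medians show normalization between arrays before deposit, and no further step was applied. The number of arrays limits the precision. Probe sets were named from the array platform's annotation (21789 probe sets with 1 gene, 1621 with several, 12146 with none), updated through gene identifiers with RefSeq GRCm38.p6; all 87 members were found there with the same name, and 3 had 2 probe sets. Intensities of different probe sets were not ranked as expression levels.

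The dtg minus stg difference was fitted by limma 3.58.1 (R 4.3.3) as a linear model of group on the log2 values with moderated variances, and two-sided p-values were adjusted by Benjamini-Hochberg over 19938 genes at a threshold of 0.05. The procedure was tested on simulated data. The labels name no separate source for replicates beyond 1 embryo per array, and no slide or scan batch was available to model. Background correction could not be varied from summarized values.

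Members and lists were chosen with earlier results of these data known. Named were members with an unadjusted p below 0.05 or groups free of overlap, and the 10 with the largest absolute difference. In each family the brightest probe set and the smallest p were also named. Of the lists of other ion channels and partners, genes with an unadjusted p below 0.05 were named. Foxo3 and Camk2a were named as the check of the transgene. Kcnk2, Kcnq5, Dpp6, Dpp10, Ank3 and the single genes given for the dissection border are named beyond that rule, after their values were seen. Replicate numbers were not used as pairs: correlations of deviations between embryos of the same number ran from -0.25 to 0.24, and 0 of 5 dtg embryos correlated best with the stg embryo of their number. In all, 20 alternative fits were run: leaving out each embryo, the replicate block, array weights, variances with a trend and robust fit, median centring, quantile normalization, no dim genes, the mean of probe sets, and covariates for pan-neuronal signal, the dissection border and sex.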

Additional observations from a re-analysis of the deposited data

Results flagged for a closer look

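Within groups of 5 embryos, 6 of 174 member and group combinations (3.45%) had 1 embryo far from the rest by Dixon's ratio, and chance gives about 1 in 20. Among the named members Kcnma1 read 4.80 log2 in stg embryo 5, against 5.51 to 5.71 in the other stg embryos. Kcnmb2 read 5.29 in dtg embryo 5, against 4.98 to 5.07 in the other dtg embryos. Their causes were not tested.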

How the results depend on the processing

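The number of genes called over the whole table, 21, was 2 with the replicate block, 39 with array weights, 91 with the pan-neuronal covariate and 6 with the border covariate, and 7 to 58 when 1 embryo was left out. The number of members called, 0, became 1 with the pan-neuronal covariate (Kcnn2), and was 0 to 1 when 1 embryo was left out (Kcnmb2 without stg embryo 4); it stayed 0 with the replicate block. The 8 members at an unadjusted p below 0.05 became 3 of 41 without dim genes, which leaves fewer genes to test. That was 7.32% of members, against 9.54% of all genes in that fit. With the border covariate the count was 4, or 4.6%, against 3.98% of all genes. The median difference of the members lay between -0.012 and 0.032 when 1 embryo was left out. Kcnd2, near 0, turned to -0.012 with array weights, -0.00017 with quantile normalization, -0.0064 with median centring, -0.10 with the pan-neuronal and -0.10 with the border covariate; Kcng1 turned to -0.0078 with array weights and -0.055 with the border covariate. With the pan-neuronal covariate Kcnh8 was -0.054, Kcnq3 -0.04 and Kcnb2 -0.024. With the border covariate Kcnh8 was -0.27, Kcnq3 -0.15, Kcnn1 -0.054, Kcnb2 -0.043 and Kcnma1 -0.032. Leaving out 1 embryo gave -0.022 to 0.084 for Kcnb2, -0.062 to 0.086 for Kcnd2, -0.063 to 0.081 for Kcng1, -0.014 to 0.082 for Kcnj11 and -0.059 to 0.13 for Kcnmb4. The causes were not tested. The 8 members with an unadjusted p below 0.05 kept their direction in every alternative fit that could give them; 5 of them are dim and drop out without dim genes.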
